A study of Drosophila melanogaster with 6 samples.

Results

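The regions described here are the H2Av-enriched stretches that lie on 5 named heterochromatic scaffolds of the Drosophila melanogaster genome, 2LHet, 3LHet, 3RHet, XHet and YHet. They were taken by the name of the sequence alone and not by any measured value. Of all regions in the lists, 134 of 4403 in replicate 1, 218 of 5016 in replicate 2 and 194 of 4763 in replicate 3 lay on these scaffolds, as did 329 of 5905 in a further list that the authors made for the replicate set (the combined list). H2Av was mapped by chromatin immunoprecipitation and sequencing (ChIP-seq) with the antibody H2AV 9751 in wild-type embryos of the strain Oregon-R, 14 to 16 h old. There were 3 ChIP libraries and 3 inputs, which are chromatin sequenced without the antibody and which have no list of their own. Embryos came from population cages, so each library pools many animals and all cell types of the embryo, and the labels do not say whether replicates came from separate collections. An SD here is thus the spread of these samples and may be technical. Positions are on FlyBase release 5.

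H2Av is the only H2A variant of the fly and does the work of both H2A.Z and H2A.X of other animals, at the starts of transcribed genes and in the response to DNA breaks. Pericentric heterochromatin is the compact, repeat-rich chromatin around the centromeres. It is packed with transposon remnants and simple repeats, carries few genes, and is marked by methylated histone H3 and the protein HP1. In Drosophila, genetic work has linked H2Av to the formation of this chromatin as well as to transcription. The scaffolds hold assembled pieces of it for the left arm of chromosome 2, both arms of chromosome 3 and the X, and YHet holds pieces of the Y, which is heterochromatic throughout. As background for the scaffolds served the interiors of the arms 2L, 3L and 3R, that is the arms without 2 Mb at each end, which are mostly euchromatin.

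The 5 scaffolds differ widely in length. 3LHet has 2.56 Mb and 3RHet 2.52 Mb, and 2LHet, YHet and XHet have 369, 347 and 204 kb, which makes 5.99 Mb in all against 63.5 Mb of arm interior. The regions divided unevenly among them. 3LHet held 80, 123 and 109 regions in replicates 1, 2 and 3 and 183 in the combined list, and 3RHet held 29, 62 and 51, with 88 combined. On the short scaffolds the numbers were 14, 15 and 16 on 2LHet (27 combined), 6, 10 and 11 on XHet (21 combined) and 5, 8 and 7 on YHet (10 combined). Replicate 1 had the lowest number on every scaffold. Its experiment number in the labels, 1706, stands apart from 2472 and 2473 of replicates 2 and 3. The labels name no batch, and with 1 list on one side a difference between experiments and the low numbers cannot be told apart.

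H2Av regions took up a smaller share of the scaffolds than of the arm interiors, and the scaffolds fell into a fuller and an emptier group. The share of bases inside regions on the 5 scaffolds was 7.71%, 12.7% and 10.9% in the 3 replicates (10.5% ± 2.55, SD, n = 3), against 15.0%, 16.8% and 16.7% in the interiors (16.2% ± 1.03). The groups did not overlap. The log2 ratio was -0.96, -0.40 and -0.61, with a mean of -0.66 ± 0.28 (SD, n = 3), which is 0.633-fold. With 3 replicates an exact permutation test by sign flips (two-sided) cannot go below p = 0.25, the value found here, so it makes no call for any comparison below and the differences are to be read against their SDs. In the combined list the gap nearly closed, with 18.5% of the scaffolds and 19.6% of the interiors inside regions.

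In the full replicate lists, XHet, 2LHet and 3LHet had about the share of the interiors, whereas 3RHet and YHet had far less. XHet had 15.6%, 19.1% and 19.4% of its bases inside regions in the 3 replicates, slightly more than the interiors in each (log2 ratio 0.15 ± 0.080, SD, n = 3). On 2LHet the share was 13.8%, 17.6% and 16.8%, and its log2 ratio of -0.02 ± 0.097 was within the spread between replicates. On 3LHet it was 10.7%, 17.1% and 14.9%, below the interiors in replicates 1 and 3 and level with them in replicate 2 (-0.21 ± 0.26). For none of these 3 scaffolds did a lower share stand out from the replicate spread. 3RHet had 3.79%, 7.99% and 6.22%, with a log2 ratio of -1.50 ± 0.46, and YHet had 3.31%, 6.18% and 5.21%, with -1.77 ± 0.38 (SD, n = 3). Every replicate of 3RHet and YHet lay below every replicate of the other 3 scaffolds. The combined list kept this order of fuller and emptier scaffolds, with 32.9% on XHet, 25.3% on 3LHet and 24.9% on 2LHet against 11.0% on 3RHet and 7.62% on YHet, but placed 2LHet and 3LHet above the interiors (log2 ratio 0.34 and 0.37). With the highest-scoring 50% of each list they lay below the interiors instead, at -0.44 ± 0.20 and -1.20 ± 0.28 (SD, n = 3).

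**Figure D1:**
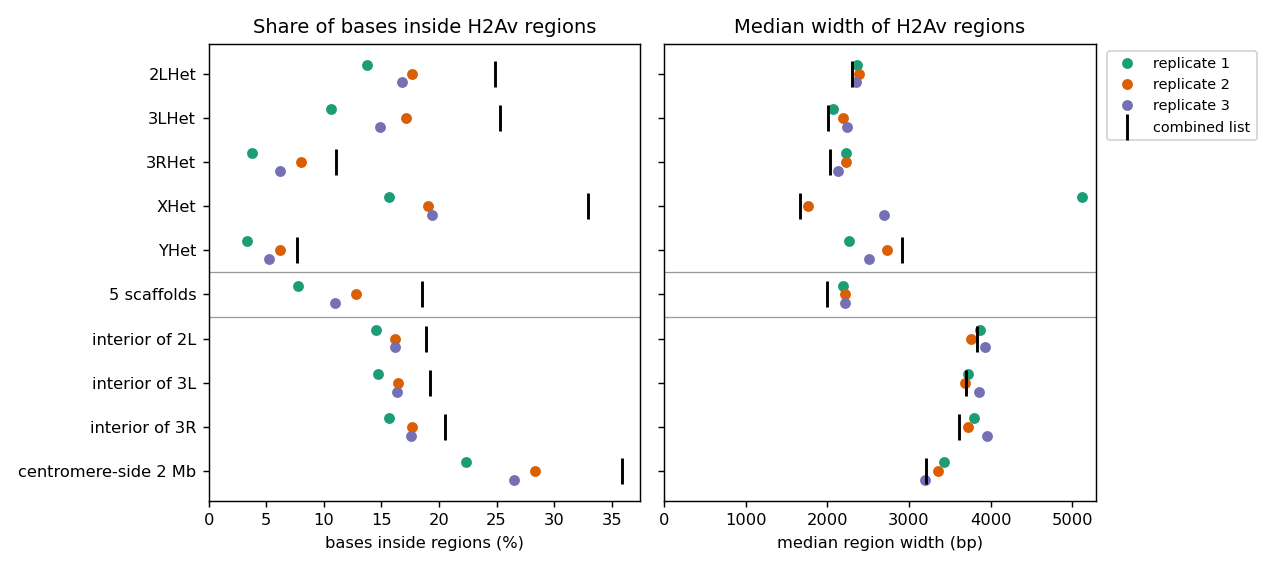
Share of bases inside H2Av regions in percent (left) and median region width in bp (right) for each scaffold, the 5 scaffolds together, the interiors of 2L, 3L and 3R and the 2 Mb of these arms next to the centromere; dots are the 3 replicates and black ticks the combined list. The 5 scaffolds together lie between 7.71% and 12.7% in the replicates, below each interior, and their median width is 2208 bp on average over the replicates against 3811 bp in the interiors.

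The lower share of the scaffolds went with narrower regions, and in the full replicate lists a lower density of regions did not stand out from the spread. Scaffold regions had a median width of 2187, 2215.5 and 2221 bp in the 3 replicates (2208 ± 18.3, SD, n = 3), and regions of the interiors 3795.5, 3726.5 and 3910 bp (3811 ± 92.7). The widths of the groups did not overlap, and scaffold regions were 0.579-fold as wide (log2 ratio -0.79 ± 0.034). Regions under 2 kb made up 38.8%, 41.3% and 36.6% of those on the scaffolds, against 13.9%, 17.0% and 17.0% in the interiors. The number of regions per Mb was 22.4, 36.4 and 32.4 on the scaffolds (30.4 ± 7.22) and 30.1, 33.0 and 31.9 in the interiors (31.7 ± 1.43). Its log2 ratio was -0.43, 0.14 and 0.02, so only replicate 1 had markedly fewer regions per Mb there, and the mean of -0.09 ± 0.30 did not differ from 0 beyond the spread. By scaffold the density went both ways. It was 11.5, 24.6 and 20.3 per Mb on 3RHet and 14.4, 23.1 and 20.2 on YHet, below the interiors in each replicate. On 3LHet it was 31.3, 48.1 and 42.7 and on 2LHet 38.0, 40.7 and 43.4, above them in each. XHet had 29.4, 49.0 and 53.9. Median widths of 2LHet, 3LHet and 3RHet were alike (means of 2366, 2169 and 2196 bp). The combined list held more regions per Mb on the scaffolds, 54.9 against 37.6, whereas among the highest-scoring 50% of each replicate list there were fewer (log2 ratio -0.98 ± 0.30, SD, n = 3). Wide regions were present but less common than in the interiors. In the replicates 8 of 134, 11 of 218 and 9 of 194 scaffold regions reached 10 kb, against 171 of 1912, 225 of 2092 and 223 of 2023. Shortest widths were 1304, 1301 and 1301 bp in the replicates and 1001 bp in the combined list, so widths describe called regions rather than the extent of H2Av itself.

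Along 3LHet, H2Av regions were densest in 2 stretches, with windows of middling share before and between them and a long sparse stretch in the second part of the scaffold. From 0.4 to 0.8 Mb, 24.4%, 36.8% and 34.7% of bases lay inside regions in the 3 replicates (32.0% ± 6.67, SD, n = 3), and this 15.7% of the scaffold held 35.3% ± 1.47 of its covered bases. Between 2.2 and 2.4 Mb the share was 33.4%, 46.4% and 44.0% (41.3% ± 6.91), which put 23.0% ± 1.68 of the covered bases on 7.83% of the length. The stretch from 1.2 to 2.1 Mb had only 2.65%, 4.48% and 3.34% (3.49% ± 0.922). It was not evenly sparse, since its window from 1.5 to 1.6 Mb had 11.6%, 14.5% and 13.0%, and 31.7% in the combined list. Windows from 0.2 to 0.3 Mb (19.6% ± 3.58), 1.0 to 1.1 Mb (25.5% ± 8.56) and 1.1 to 1.2 Mb (19.3% ± 5.70) were as full as the less full windows of the first dense stretch. The replicates placed the dense and sparse stretches alike, with replicate 1 the lowest in each of these 3 stretches. Of all 100 kb windows of the 5 scaffolds, the fullest was 3LHet from 2.2 to 2.3 Mb, with 42.1%, 51.2% and 49.8% (47.7% ± 4.92), followed by 3LHet from 0.6 to 0.7 Mb with 42.4% ± 4.90 and from 0.7 to 0.8 Mb with 39.6% ± 9.87. Windows without a base inside any replicate region included those from 0.1 to 0.2 Mb, from 1.9 to 2.0 Mb and the last 55.5 kb, which were empty in the combined list too. These longer stretches were delimited after the window values were seen and are a description.

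3RHet, although nearly as long as 3LHet, had most of its bases inside H2Av regions in a single block of 400 kb. From 1.6 to 2.0 Mb the share of bases inside regions was 16.5%, 29.2% and 23.5% in the 3 replicates (23.1% ± 6.39, SD, n = 3). This block is 15.9% of the scaffold and held 69.0%, 58.1% and 60.1% of its covered bases. The fullest window lay within it, from 1.8 to 1.9 Mb, with 22.3%, 42.5% and 34.0% (32.9% ± 10.2). Outside the block 3RHet was sparse, with 3.54% ± 1.59 from its start to 1.6 Mb and 0%, 0.778% and 0.386% in the 518 kb after 2.0 Mb. In that last stretch replicate 1 had no region, replicate 2 had 2 and replicate 3 had 1. The longest stretch of 3RHet without a region in any list ran from 1446696 to 1610914 (164 kb) and ended just inside the block.

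**Figure D2:**
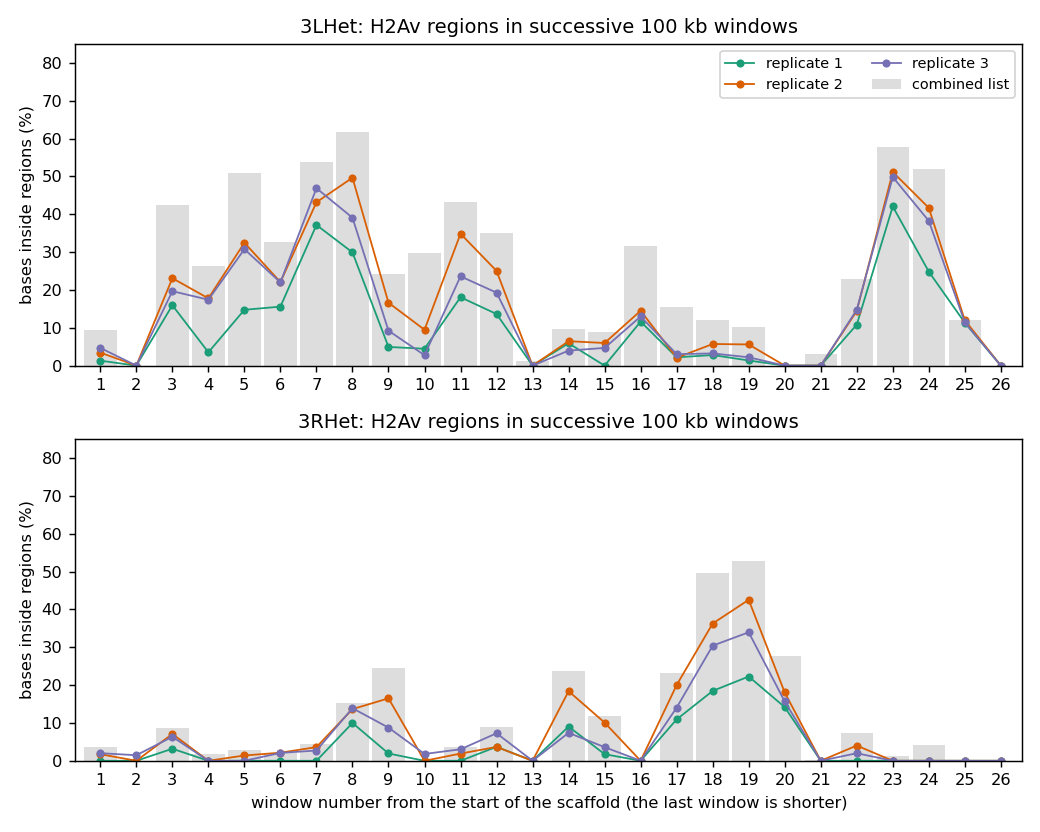
Share of bases inside H2Av regions in percent in successive 100 kb windows of 3LHet (top) and 3RHet (bottom), counted from the start of each scaffold; coloured lines are the 3 replicates and grey bars the combined list. On 3LHet the replicates peak together near windows 7 and 8 and again at windows 23 and 24, and on 3RHet at windows 18 and 19, with replicate 1 the lowest at the peaks.

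Of the 3 short scaffolds, XHet and YHet had their regions to one side, and 2LHet was fullest near its middle. XHet had 30.4%, 31.1% and 31.9% of its first 100 kb inside regions in the 3 replicates (31.1% ± 0.739, SD, n = 3), the closest agreement of any of the fullest windows of the scaffolds. That window held 95.2%, 79.9% and 80.5% of the covered bases of XHet. The scaffold was without a region in any list from 125657 to its end at 204112, a stretch of 78.5 kb or 38.4% of its length. 2LHet was fullest from 0.1 to 0.2 Mb, with 23.6%, 31.2% and 30.3% (28.4% ± 4.14), had means of 15.0% and 15.2% in the windows on either side and 0.882% in its last 68.9 kb, and its longest empty stretch ran from 58578 to 132313 (73.7 kb). YHet was the most lopsided. Its first 205 kb, 59.2% of the scaffold, had no region in any list, and the last 47.0 kb, with 20.4%, 36.7% and 30.0% of bases inside regions (29.0% ± 8.18), held 83.6%, 80.4% and 78.0% of its covered bases.

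All 10 combined regions of YHet formed 2 clusters, from 205283 to 225760 with 3 regions and from 295710 to 341054 with 7. Each region has a score from the authors, read as a log2 ratio and used here as a percentile of all scores of the same list, because the scale differs between lists. Regions on YHet were few and narrow, 1165 to 4080 bp in the combined list, but the second cluster scored high, with 5 of its 7 regions at percentile 84.4 or above of the combined scores. The median percentile on YHet was 67.9, 85.9 and 80.4 in the 3 replicates, the highest of the 5 scaffolds in each. The highest-scoring combined region of YHet, from 326236 to 329325 (3090 bp, score 1.65), was at percentile 91.8, 95.6 and 94.7 in the replicates. Neighbouring regions from 303669 to 307251, from 311710 to 314780 and from 319262 to 322036 were also in all 3 replicates, at percentile 83.3, 78.9 and 95.5, at 58.9, 96.9 and 89.7, and at 67.9, 93.0 and 80.4. The fifth in all 3, from 214042 to 216212, ranked low, at 20.9, 32.7 and 29.8. The widest, from 336975 to 341054 (4080 bp), was absent from replicate 1. With 5 to 8 regions a replicate these ranks rest on few regions.

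Bases inside H2Av regions were more concentrated on the scaffolds than in the interiors. The fullest 10 of 63 windows, 15.8% of the scaffold length, held 54.8%, 49.3% and 52.7% of the covered bases in the 3 replicates (52.3% ± 2.77, SD, n = 3). In the interiors the fullest 101 of 637 windows, 15.9% of the length, held 44.7%, 43.6% and 44.1% (44.1% ± 0.583). The groups did not overlap, though windows were ranked on the mean of the same replicates and the interiors are much longer. Over the 60 windows of at least 50 kb the median of the replicate means was 5.01%, against 12.6% over 634 windows of the interiors. A mean share over 30% was found in 6 of the 60 (10.0%), against 18.5% of interior windows, and 4 of the 6 lay on 3LHet.

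Windows without any region were more common on the 5 scaffolds pooled in each replicate, most of all in replicate 1, but not on every scaffold. There were 24, 16 and 16 such windows of 60 in the 3 replicates, or 40.0%, 26.7% and 26.7%, against 23.0%, 20.3% and 21.0% of interior windows. The difference of 17.0, 6.32 and 5.69 percentage points (9.66 ± 6.34, SD, n = 3) changed direction in the combined list, where 10 windows (16.7%) were empty against 18.0%. Windows that were empty in replicate 1 and filled in replicates 2 and 3 numbered 6 (10.0%), against 1.89% in the interiors. Of these 6, 5 lay on 3RHet and 1 on 3LHet, the fullest of them with a mean of 3.55% of bases inside regions. Stretches of at least 100 kb without a region in any list numbered 14 and made up 34.2% of the scaffold length, less than the 40.8% of the interiors. Scaffolds are far shorter than the interiors, which leaves less room for such stretches, and this effect was not tested. On 3RHet there were 9 of them, 48.1% of the scaffold, and on YHet 1, 59.2%, both above the share of the interiors. 3LHet had 4 (24.9%), the longest from 1844276 to 2022235 (178 kb), and 2LHet and XHet had 0.

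Pooled over the 5 scaffolds, regions lay in clusters about as often as regions of the interiors, but the scaffolds differed. A cluster is here a run of at least 3 regions with neighbours at most 10 kb apart. On the scaffolds 81 of 134, 158 of 218 and 138 of 194 regions were in clusters in the 3 replicates, or 60.4%, 72.5% and 71.1%, against 66.7%, 72.5% and 68.6% in the interiors. The difference was -6.29, 0.01 and 2.52 percentage points, with a mean of -1.25 ± 4.54 (SD, n = 3), within the spread, and it was 6.05 in the combined list, where 272 of 329 scaffold regions (82.7%) were clustered against 76.6%. Median gaps between neighbours were 6862, 4611 and 5006 bp on the scaffolds and 4843, 4314 and 4596 bp in the interiors. Gaps were thus wider in each replicate, but mostly in replicate 1 (log2 ratio 0.50, 0.10 and 0.12), and in the combined list they were narrower, 3140.5 against 3380.5 bp.

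The combined list showed where the clusters were longest. All 21 regions of XHet formed a single cluster from 1288 to 125656 (124 kb), of which 54.0% was inside regions. Of these 21, however, 12 were in no replicate, and the longest XHet cluster of replicates 1, 2 and 3 spanned 36.4, 36.1 and 72.8 kb. On 3LHet the largest were from 396842 to 494516 with 19 regions, from 626025 to 764612 with 17 regions over 139 kb (66.2% inside regions) and from 1050575 to 1160724 with 16. At the first of these replicate 1 had no cluster, and the longest of replicates 2 and 3 spanned 39.5 and 42.1 kb. At the second the longest spanned 69.1, 100 and 100 kb in the 3 replicates, and at the third 17.0, 75.5 and 27.8 kb. The largest on 3RHet, from 1758174 to 1858582, had 16 regions and lay in the dense block of that scaffold. The longest replicate clusters there spanned 28.8, 59.3 and 40.1 kb. Of the combined regions, 57 of 183 on 3LHet and 26 of 88 on 3RHet were in no replicate. 2LHet had a cluster of 11 regions from 150895 to 214840, with 72.1% of its bases inside regions. The longest replicate clusters there spanned 31.9, 33.5 and 62.8 kb. The widest combined region of 2LHet lay in this cluster, from 162995 to 177091 (14097 bp), and was at percentile 88.0, 86.7 and 94.2 in the replicates. Near the far end of 3LHet, 59.6 kb from 2268618 to 2328252 had only 4 combined regions but 92.5% of bases inside them.

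H2Av regions of the scaffolds ranked low by score within each list. Their median percentile was 29.9, 34.8 and 30.9 in the 3 replicates (31.9 ± 2.57, SD, n = 3), against 52.6, 54.1 and 54.2 in the interiors (53.6 ± 0.899). The groups did not overlap, and the difference was -22.7, -19.4 and -23.3 percentile points (-21.8 ± 2.11). 3LHet ranked lowest in each replicate (25.8, 28.0 and 24.9), and XHet had 65.1, 48.2 and 49.3. 2LHet had 35.5, 50.7 and 42.7, and 3RHet had 42.2, 36.6 and 30.8. YHet, with 67.9, 85.9 and 80.4 on 5, 8 and 7 regions, lay above the interiors in each replicate, as did XHet in replicate 1. 3LHet held 80 of the 134, 123 of the 218 and 109 of the 194 scaffold regions and so weighs most in the joint median. Few scaffold regions reached the highest 10% of their list, 4 of 134, 18 of 218 and 13 of 194 (2.99%, 8.26% and 6.70%), against 10.4%, 10.1% and 10.8% of interior regions, and in the combined list 29 of 329 (8.81%) did, against 10.6%.

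Within width classes, scaffold regions over 2 kb ranked below those of the interiors, while the narrowest ranked above their counterparts. Regions of up to 2 kb ranked lowest on both. They made up 38.8%, 41.3% and 37.1% of scaffold regions in the 3 replicates, against 14.0%, 17.0% and 17.0% in the interiors. What this mix of widths adds to the low rank was not tested. Among regions of up to 2 kb the median percentile was 13.7, 16.9 and 21.1 on the scaffolds and 7.20, 8.26 and 7.85 in the interiors, a difference of 9.46 ± 3.47 (SD, n = 3). From 2 to 4 kb it was 29.6, 35.8 and 30.1 against 42.1, 43.2 and 41.9 (-10.6 ± 2.80), and over 4 kb 68.9, 50.5 and 50.7 against 74.2, 75.0 and 75.0 (-18.0 ± 11.0). In each width class and replicate the sign was the same, but the size over 4 kb was small in replicate 1. Width and score accordingly went together less closely on the scaffolds. The Spearman correlation across regions was 0.53, 0.51 and 0.44 in the 3 replicates on the scaffolds (134, 218 and 194 regions) and 0.78, 0.80 and 0.79 in the interiors (1912, 2092 and 2023). In the combined list it was 0.28 over 329 regions and 0.80 over 2387, where regions share libraries and are not independent. The pattern within width classes was not particular to the scaffolds. In the 2 Mb of the arms next to the centromere, median percentiles were 11.0, 10.5 and 12.4 up to 2 kb. They were 26.4, 31.8 and 31.7 from 2 to 4 kb, and 56.5, 59.9 and 59.8 over 4 kb.

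**Figure D3:**
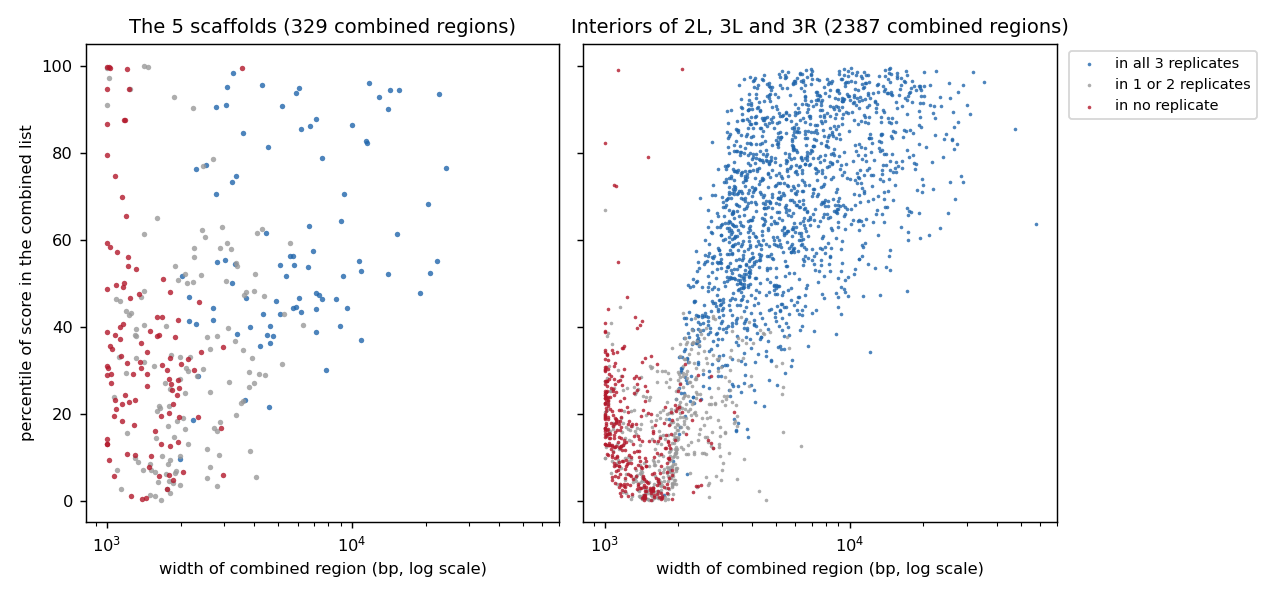
Percentile of the score within the combined list against region width in bp on a log axis, for the 329 combined regions of the 5 scaffolds (left) and the 2387 of the interiors (right); each point is a region, coloured by whether it overlapped regions of all 3 replicates, of 1 or 2, or of none. In the interiors 250 of the 252 regions in the highest 10% of scores are in all 3 replicates, whereas on the scaffolds 14 of 29 are, and 13 of the 29 are at most 2 kb wide.

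The replicates shared fewer bases on the scaffolds than in the interiors. The Jaccard index, bases in both lists over bases in either, of the pairs 1 and 2, 1 and 3, and 2 and 3 was 0.527, 0.565 and 0.642 on the scaffolds, against 0.823, 0.825 and 0.858 in the interiors. Each pair differed by more than the spread among pairs (mean difference -0.257 ± 0.0404, SD over 3 pairs, which share lists and are not independent). Agreement was closest on 2LHet (mean 0.731) and XHet (0.700), lower on YHet (0.623) and 3LHet (0.579), and lowest on 3RHet (0.493). In all, 890 kb of the scaffolds lay in a region of any replicate and 390 kb, or 43.8%, in regions of all 3, against 76.4% in the interiors. The Spearman correlation across 60 windows was 0.94, 0.94 and 0.97 for the 3 pairs, and 0.99 for each pair across 634 windows of the interiors.

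Where 2 replicates shared scaffold bases and the third did not, the third was mostly replicate 1. Of the bases in a region of any replicate, 32.5% were in 1 replicate only, against 12.5% in the interiors. Of the scaffold bases that replicates 2 and 3 shared, 70.3% were in replicate 1, whereas 96.8% of those shared by 1 and 3 were in 2 and 92.3% of those shared by 1 and 2 were in 3. In the interiors the same shares were 90.7%, 97.9% and 97.9%. By region, 125 of 134 scaffold regions of replicate 1 (93.3%) overlapped replicate 2 and 116 (86.6%) replicate 3, but 113 of 218 regions of replicate 2 (51.8%) and 108 of 194 of replicate 3 (55.7%) overlapped replicate 1. In the interiors these shares were 97.0%, 95.8%, 84.4% and 84.9%. Scores of shared regions had Spearman correlations of 0.80 (125 regions), 0.77 (116) and 0.89 (151) in the same order of pairs, below the 0.87, 0.87 and 0.92 of the interiors.

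Bases that every replicate placed inside regions formed 122 stretches on the scaffolds. These stretches were shorter than those of the interiors, with a median length of 2140 bp, and 20 (16.4%) reached 5 kb, against 1921 in the interiors with a median of 3565 bp and 30.6% of at least 5 kb. Of the 10 longest, 6 lay on 3LHet, 2 on 2LHet and 1 each on 3RHet and XHet. The longest was 3LHet from 681934 to 700302 (18369 bp), a single region of 18955, 19301 and 19316 bp in the 3 replicates, whose score was of middle rank (percentile 47.7, 58.5 and 57.3). Next came 3LHet from 2229907 to 2245065 (15159 bp), which ranked high in each list (85.5, 92.1 and 92.2), and 3LHet from 2188812 to 2199573 (10762 bp; 89.5, 96.6 and 96.6). 2LHet from 30440 to 40975 (10536 bp) was at percentile 86.0, 95.5 and 89.6. 3LHet from 599878 to 610278 (10401 bp) was at 88.1, 92.5 and 92.6. These 4 stretches were thus both broad and among the strongest regions of each list. By contrast 3RHet from 1895115 to 1905274 (10160 bp), within the dense block, was at 42.2, 58.9 and 54.6.

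Shorter among these 10 were 3LHet from 2401944 to 2411418 (9475 bp) and from 2390558 to 2398615 (8058 bp), 2LHet from 167785 to 176971 (9187 bp) and XHet from 53852 to 62975 (9124 bp). Both stretches of 3LHet belonged to the widest combined region of that scaffold, from 2389208 to 2411978 (22771 bp). Replicate 1 divided this region into 3, the widest of 9727 bp, while replicates 2 and 3 had single regions of 22790 and 28632 bp. On XHet the stretch belonged to the highest-scoring combined region, from 51547 to 63122 (11576 bp), at percentile 66.5, 84.8 and 71.2 in the replicates. The widest combined region of XHet and of all 5 scaffolds, from 66425 to 90565 (24141 bp), consisted of 4, 3 and 4 regions in the replicates, which covered 84.5%, 80.9% and 80.3% of it. Both regions of XHet were in all 3 replicates.

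Most combined regions of the scaffolds were not found in every replicate. Of the 329, 89 (27.1%, with an exact 95% Clopper-Pearson interval of 22.3 to 32.2 for counting error alone) had a counterpart in each of the 3 replicates, sharing at least 1 base, against 65.9% of combined regions in the interiors and 57.9% over all sequences. Another 52 were in 2 replicates, 80 in 1 and 108 (32.8%) in none, where the interiors had 15.1%. Unsupported regions were narrow (median width 1304 bp), and those in all 3 were wide (5761 bp). The 89 regions held 57.8% of the combined length on the scaffolds, against 88.6% held by such regions in the interiors. Replicates 2 and 3 without 1 accounted for 42 regions (12.8%), against 5.95% in the interiors. When replicate 1 was left out, the share in both others was 39.8%, below even the 65.9% of interior regions in all 3. By scaffold, 11 of 27 on 2LHet, 49 of 183 on 3LHet, 21 of 88 on 3RHet, 3 of 21 on XHet and 5 of 10 on YHet were in all 3 replicates. On XHet 12 of 21 were in none.

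**Figure D4:**
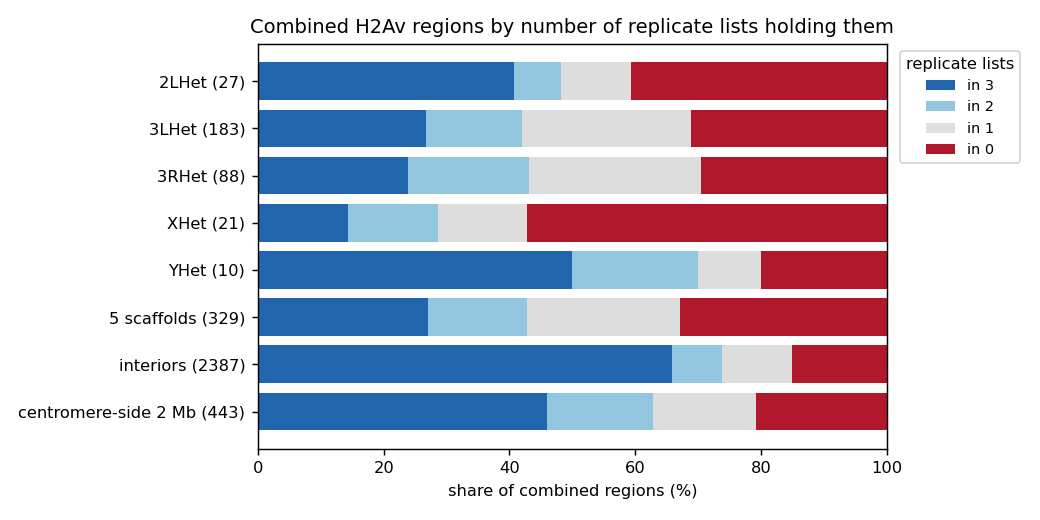
Share of combined H2Av regions in percent that overlapped regions in 3, 2, 1 or 0 replicate lists, for each scaffold, the 5 scaffolds together, the interiors and the 2 Mb next to the centromere; numbers of combined regions are in brackets. On the 5 scaffolds 27.1% were in all 3 replicates and 32.8% in none, against 65.9% and 15.1% in the interiors.

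Support was lower on the scaffolds than in the interiors within classes of like width as well. Of combined regions over 4 kb, 62 of 73 (84.9%, interval 74.6 to 92.2) were in all 3 replicates, against 98.6% in the interiors. From 2 to 4 kb it was 26 of 91 (28.6%, interval 19.6 to 39.0), against 72.9%. In the 2 Mb of the arms next to the centromere the shares were 90.1% (interval 84.7 to 94.0) and 34.5% (26.0 to 43.7), whose intervals overlap those of the scaffolds. Up to 2 kb support was nearly absent on both, with 1 of 165 on the scaffolds and 5 of 621 in the interiors. A high score did not make up for this on the scaffolds, where 14 of the 29 combined regions in the highest 10% of scores (48.3%) were in all 3 replicates, against 250 of 252 (99.2%) in the interiors. The 29 had a median width of 2775 bp against 9290 bp, and 13 of them were at most 2 kb wide, against 1 of 252.

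The very highest combined scores of the scaffolds belonged to short regions with little or no replicate support. In the highest 1% of combined scores, 8 regions lay on the scaffolds, of which 0 were in all 3 replicates, 5 were in none and 7 were at most 2 kb wide. Over all sequences the highest 1% was 59 regions, of which 15 were in all 3 replicates, 37 in none and 41 at most 2 kb wide. Such regions were thus not limited to the scaffolds. In the interiors, however, they were rare, since 6 of the 8 there were in all 3, 2 in none and 1 at most 2 kb wide. The highest score of the scaffolds, 3.56, was at 3LHet from 510378 to 511797 (1420 bp) and was held by 1 other combined region. Replicate 3 alone had a region there, of 1712 bp. The highest on 3RHet, 2.56 from 675509 to 676531 (1023 bp), was in no replicate, and the highest on 2LHet, 2.15 from 48845 to 49845 (1001 bp), overlapped replicate 3 alone. Each of these 2 scores was held by 4 combined regions. Scores shared with another region of the list were more common on the scaffolds, with 32.8%, 22.0% and 22.7% of replicate regions and 22.2% of combined ones, against 16.2%, 9.03%, 8.55% and 12.5% in the interiors. Numbers of reads are not given, so the precision of these scores is unknown.

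Among regions found in all 3 replicates the highest combined scores were lower. They were 1.85 on 3RHet from 772970 to 776253 (3284 bp; percentile 99.3, 96.2 and 79.5 in the replicates) and 1.69 on 2LHet from 29585 to 41366. On 3LHet it was 1.66, from 1395276 to 1399578 (4303 bp; 83.8, 95.3 and 94.9), in the sparse part of that scaffold. The region of 3RHet likewise lay outside its dense block, so high scores in every replicate were not limited to the dense stretches.

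The scaffolds were finally set beside the 2 Mb of 2L, 3L and 3R next to the centromere, which together are of nearly the same length, 6.00 Mb. How much of these ends is itself heterochromatin was not determined here. These ends were fuller than both the scaffolds and the interiors, with 22.4%, 28.3% and 26.6% of bases inside regions in the 3 replicates (25.7% ± 3.06, SD, n = 3). Against them the share on the scaffolds was 0.400-fold (log2 ratio -1.32 ± 0.20), with no overlap. Regions per Mb were also fewer on the scaffolds, with a log2 ratio of -0.90 ± 0.20, and regions were narrower, since medians at the arm ends were 3426.5, 3351.5 and 3200 bp (-0.59 ± 0.061). Ranks by score, however, were close, with a median percentile of 34.0, 34.7 and 34.2 at the ends and a difference of -2.44 ± 2.18. Replicate overlap at the ends, a mean Jaccard index of 0.725, lay between the 0.578 of the scaffolds and the 0.835 of the interiors, and so did the support of combined regions by every replicate, 46.0%. The alignable part of the scaffolds was not analysed here, and a low share of bases inside regions need not mean little H2Av.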

How the data were processed

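H2Av ChIP-seq libraries of Oregon-R embryos, fixed with 1.8% formaldehyde per the labels' protocols, were grouped by the labels into 3 ChIP replicates and 3 inputs. The labels pair ChIPs 1, 2 and 3 with inputs 3, 1 and 2. Bowtie 0.12.7 is named in the submitters' processing notes. Each ChIP library, and the set of replicates, has a list of enriched regions that the authors deposited on release 5 of FlyBase, per the file headers. For the region caller, its thresholds and the making of the combined list, the method is not given in the sources used here. The deposited scores were read as log2 ratios from the values. In each list, 199 of 199 scores of short regions tested were log2 of 1 constant of the list times a ratio of whole numbers (relative tolerance 2e-13). The constant differs between lists, so scores were used within a list only. The lists give no read counts, so depth is unknown, and the share of reads behind any region cannot be given.

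Scaffold lengths came from the file headers, and 0 regions ran past a scaffold's end. Bases inside regions, regions per Mb, widths, gaps, clusters, windows of 100 kb (those of at least 50 kb counted) and mid-rank percentiles of score were computed per list. Scaffolds were compared with interiors per replicate by log2 ratio or difference, with an exact permutation test by sign flips (two-sided). Intervals are exact Clopper-Pearson at 95% and cover counting error only. Checked on 30 simulated lists, the interval functions gave 0 mismatches. Named by rule were the highest-scoring and the widest combined region, the fullest window and the longest empty stretch of each scaffold, and the 10 longest stretches in all 3 replicates. Other regions, stretches and clusters were chosen after their values were seen. The scaffolds, measures and rules were chosen with earlier results of these data known. Gene positions were at hand for release 6 alone, so no gene is named, and with no genome of release 5 used here no sequence is shown. Computing used matplotlib 3.10.9, scipy 1.17.1, pandas 2.3.3, numpy 2.4.6 and Python 3.11.15. Alternatives tried were only the highest-scoring 50% of a list, interiors from 1 Mb, whole arms, regions under 200.0 bp apart joined, the combined list, other cluster gaps and windows, stricter overlap, lists of equal length, 3LHet and 3RHet only, and leaving out each replicate.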

Additional observations from a re-analysis of the deposited data

How the results depend on the processing

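Values are log2 ratios or differences of the scaffolds to the interiors, and the cause of each change below was not tested. These 3 alternatives were chosen after the data were seen: leaving out shared scores, the centromere-side 2 Mb as background, and combined regions as wide as the shortest replicate region. Of 75 settings other than leaving out a replicate, 40 kept the value within its spread, 29 moved it and 6 reversed it. With the highest-scoring 50% of each list, covered share was -1.43, on 2LHet -0.44, on 3LHet -1.20 and on 3RHet -2.36. Regions per Mb were then -0.98, width -0.72, score percentile -0.69, gap 0.61, clustered regions -6.64 and empty windows 25.5. The last 2 are in percentage points. The combined list reversed 2LHet (0.34), 3LHet (0.37), regions per Mb (0.55), gap (-0.11), clustered regions (6.05) and empty windows (-1.31). It also moved covered share to -0.082, 3RHet to -0.83, XHet to 0.75, YHet to -1.36, width to -0.89 and percentile to -15.9. Percentile was -19.5 against whole arms, -25.1 for 3LHet and 3RHet only and -24.6 without shared scores. Width was -0.75 with close regions joined and -0.63 without shared scores. Against the centromere-side 2 Mb, covered share was -1.32, regions per Mb -0.90, width -0.59, percentile -2.44 and the Jaccard index -0.147. Combined regions in all 3 replicates were 15.8% when overlap had to reach 50% of each region, 35.5% with lists of equal length and 34.4% with combined regions as wide as replicate ones. The interiors then had 57.2%, 86.4% and 74.2%. With 1 replicate left out, covered share was -0.79 to -0.51, 3LHet -0.33 to -0.074, 3RHet -1.71 to -1.25, XHet 0.12 to 0.20 and YHet -1.93 to -1.57. Width was then -0.81 to -0.77, percentile -23.0 to -21.0, gap 0.11 to 0.31, empty windows 6.00 to 11.6, the Jaccard index -0.296 to -0.215 and support 27.7 to 39.8%. Without replicate 1 the sign turned for 2LHet (-0.061 to 0.034), regions per Mb (-0.20 to 0.082) and clustered regions (-3.14 to 1.27). Depth is unknown and limits every score. Scaffolds and interiors were compared within each replicate throughout. For ChIP against input: No paired analysis was possible because no region list of the input libraries was analysed here.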
